A study of Mus musculus with 9 samples.

Results

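Fatty acid and triglyceride synthesis was described here through 40 named genes, of which 38 were read by a probe set assigned to 1 gene alone, among 18193 genes measured on the same arrays. The wax ester synthases Awat1 and Awat2 had no such probe set and were not analysed here. Where several probe sets read a gene, the brightest on average across the 9 arrays stood for it. The genes were listed by name for their place in the pathway, with earlier results of these data known. Shares of these genes set against all genes are therefore not those of a list made independently of the data.

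The arrays compared epidermis of adult mice of the hairless SKH1 background (5 backcross generations), and each array is labelled a biological replicate. All mice carried loxP-flanked Alox12b on both alleles (labelled p/p) and received 3 injections of 1 mg tamoxifen at the age of 8 weeks, and epidermis was scratched off frozen skin 6 days after the treatment. The 5 arrays of the inactivated group came from mice that also carried the tamoxifen-dependent Cre-ERT2 recombinase under the keratin K14 promoter, which is active in basal epithelial cells of skin and its appendages. The 4 control arrays came from floxed littermates without Cre, so effects of Cre itself and of the loss of Alox12b cannot be told apart. Alox12b encodes an epidermal lipoxygenase that oxidises the linoleate of barrier ceramides. The probe set for Alox12b read 9.50, 10.04 and 10.17 (lowest, median and highest log2 level of 5) in the inactivated group and 9.19, 9.26 and 9.40 in the 4 controls. Its place relative to the deleted part of the gene is not given in the sources used here, so it does not check the deletion. The keratinocyte markers Krt1, Krt5, Krt10, Krt14, Dsp and Perp were near the top of the array range in both groups, and the mean log2 level of the 7 measured keratinocyte markers was 12.34 to 12.46 in the inactivated group and 12.40 to 12.48 in the controls. Of the 7, Krt14 rose by 0.47 ± 0.06, Trp63 fell by 0.35 ± 0.09 and the other 5 did not pass.

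Lipogenesis starts from cytosolic acetyl-CoA, which acetyl-CoA carboxylase turns to malonyl-CoA and fatty acid synthase builds into palmitate. Elongases lengthen the chain, desaturases place double bonds, and acyl-CoA synthetases activate the acid for use. Acyltransferases and lipins then assemble glycerol and acyl chains into phosphatidate, diacylglycerol and triglyceride, which lipases break down again. In skin this pathway supplies the acyl chains of barrier ceramides in keratinocytes and the sebum of sebaceous glands, and SREBP-1, encoded by Srebf1, is a main activator of its genes.

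The arrays read whole epidermis, in which fewer cells of a type and less RNA per cell cannot be told apart. Single steps of the pathway were higher in the inactivated group and others lower, often between enzymes of the same kind of reaction. Each difference is the mean log2 level of the 5 inactivated arrays less that of the 4 controls, given ± its limma SE, and a gene rose or fell where its p, adjusted by Benjamini-Hochberg over all 45037 probe sets, was under 0.05. Of the 38 measured genes, 9 rose, 9 fell and 20 did not pass, so that 47.4% were called, against 34.4% of all genes. The fit was repeated on probe sets above the median level alone, where 33 of the 38 genes lie, and adjusted over those. There 57.6% of the 33 were called, against 49.1% of all genes, and 30.3% against 29.1% fell. Over all levels, the rises covered 23.7% of the 38 genes, against 15.5% of all genes, and the falls another 23.7%, against 18.9%. The groups did not overlap in 16 of the 38 genes (42.1%), against 31.6% of all genes. Called differences of at least 2-fold were found in Agpat3, Lpin2, Elovl5, Acacb and Scd3, 13.2% of the genes against 5.77% of all genes. The 2 that rose compare with 2.43% of all genes, and the 3 that fell with 3.34%. The shares without overlap and of at least 2-fold were not taken again above the median level, where most of the 38 genes lie. The median difference over the 38 genes was 0.12, and that over all genes was 0.03. Of the 18 calls, 11 held whichever single array was left out: Acss2, Elovl7, Agpat3, Lpin2, Lpin3 and Lipe rose, and Srebf1, Elovl5, Elovl6, Acsl5 and Gpam fell. The counts without single arrays ranged from 6 to 10 genes that rose and from 5 to 9 that fell, the lowest count of falls being reached without control replicate 2, 3 or 4.

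**Figure D1:**
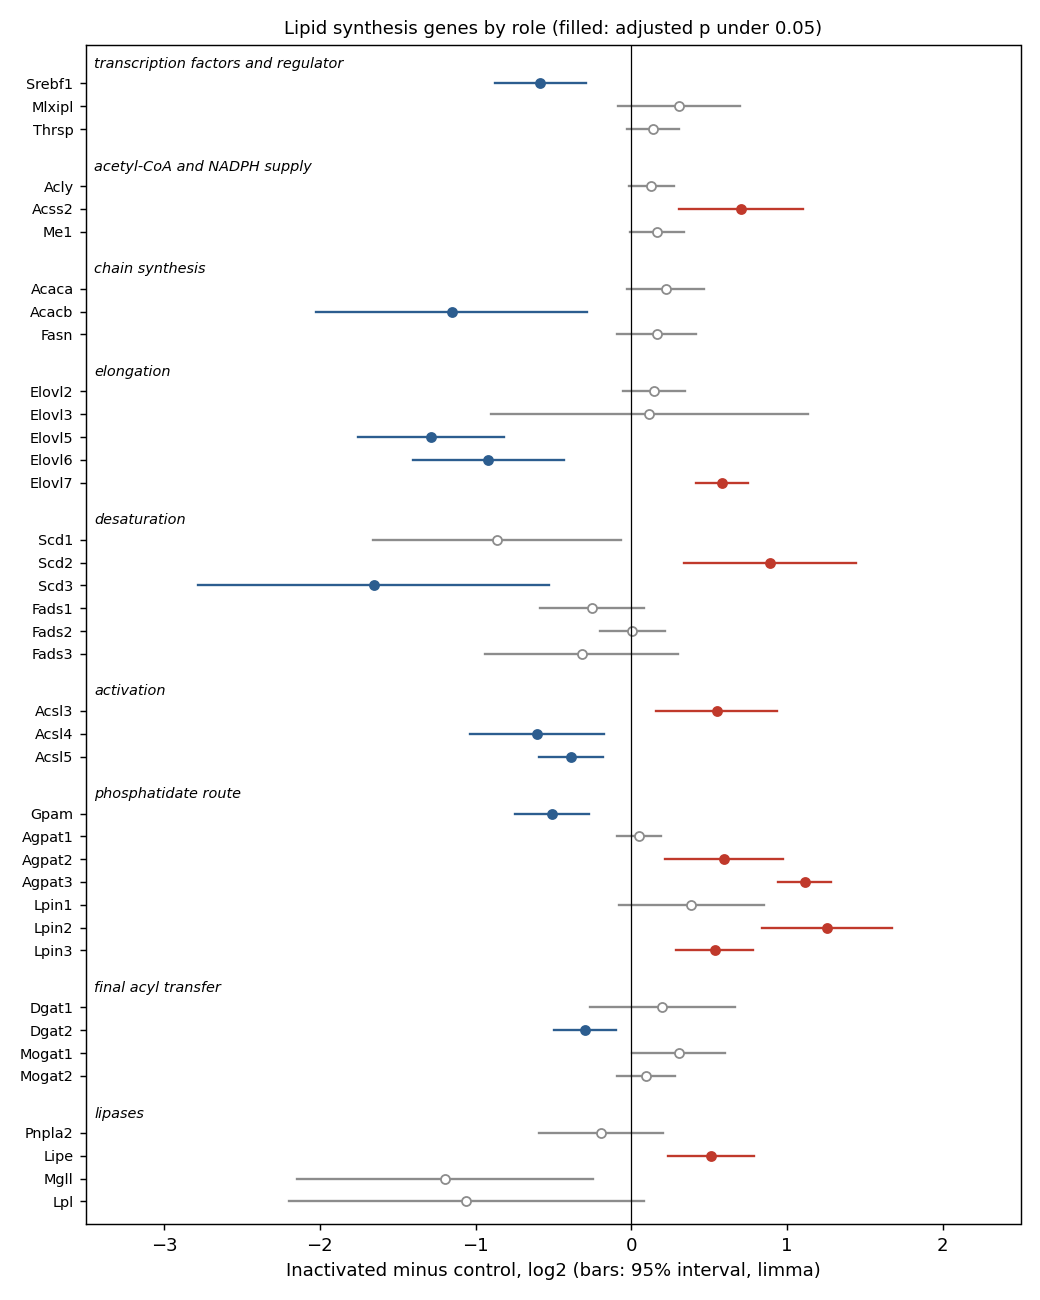
Difference between inactivated and control epidermis for the 38 measured genes, grouped by role, on the log2 scale (horizontal axis). Points are means of 5 against 4 arrays, bars the 95% interval from limma, and filled points have an adjusted p under 0.05; Lpin2 and Agpat3 lie farthest to the right and Scd3 farthest to the left.

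Several pathway regulators, among them USF and ChREBP, bind the E-box, so the letters CACGTG were searched in the 250 bases before each start site listed in RefSeq (GRCm38.p6), which holds 45 start sites of 32 of the 40 genes. The motif reads the same on both strands. It was present at 5 of the 45 start sites (11.1%), against 6.02% of all 32851 start sites listed, and belonged to Elovl5, Lpin2, Lipe, Mgll and Mlxipl. The windows of the genes that rose or fell are shown because they lie at genes that moved in opposite directions, Elovl5 lower and Lpin2 and Lipe higher. They are printed on the strand of the gene with the E-box in capitals. The Elovl5 window is chr9:77917177-77917236 (plus strand), with the first base of the motif at -161 from the start site. That of Lpin2 is chr17:71183496-71183531 (plus strand), with the motif at -9. That of Lipe is chr7:25396110-25396169 (minus strand), with the motif at -155. A match of letters does not show that a factor binds there.
Elovl5: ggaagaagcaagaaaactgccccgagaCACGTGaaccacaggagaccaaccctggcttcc
Lpin2: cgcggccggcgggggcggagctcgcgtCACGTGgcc
Lipe: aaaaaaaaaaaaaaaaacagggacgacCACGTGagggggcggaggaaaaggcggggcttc

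A sterol response element spelled TCACNCCAC was searched on both strands. It was present at 1.05% of all start sites and, among these genes, at 1 start site of Mlxipl (2.22% of the 45). Scd1, Scd2, Fads1, Dgat1, Dgat2, Lpl, Elovl3 and Mogat2 had no start site listed and were not searched for any motif. The letters CCAAT, the core bound by NF-Y, were present on either strand at 17 of the 45 start sites (37.8%), near the 33.8% over all start sites.

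Of the 3 transcriptional regulators, Srebf1 fell and the others did not pass. Srebf1 read 7.91, 7.89, 8.58, 8.20 and 8.28 (log2 levels of inactivated replicates 1 to 5) against 8.84, 8.69, 8.72 and 8.76 in control replicates 1 to 4. Every inactivated array lay below every control, with replicates 1 and 2 lowest, and the difference was -0.58 ± 0.13 (adjusted p = 0.00768), or 1.5-fold lower. The single probe set does not separate the SREBP-1a and SREBP-1c messages. Mlxipl, which encodes the carbohydrate-responsive factor ChREBP, differed by 0.31 ± 0.18 (adjusted p = 0.225), and Thrsp, the lipogenic protein Spot 14, by 0.14 ± 0.08 (adjusted p = 0.201). Mlxipl was dim, at 3.96 ± 0.38 (SD, n = 5) and 3.65 ± 0.18 (SD, n = 4), where array values are compressed.

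Around these regulators, a companion list of 13 measured genes that control lipogenic transcription had 2 higher, 5 lower and 6 not passing. Mid1ip1, the paralog of Spot 14 that activates acetyl-CoA carboxylase, rose by 0.63 ± 0.07 (adjusted p = 0.000133). It read 10.84 to 11.06 on the inactivated arrays and 10.21 to 10.40 on the controls, without overlap. Mlx, the partner of ChREBP, rose by 0.53 ± 0.09. The site 1 protease Mbtps1, which cuts SREBP precursors in the Golgi, fell by 0.65 ± 0.09. Insig2, which retains the precursors in the endoplasmic reticulum, fell by 0.57 ± 0.10, and the E-box factor Usf2 by 0.43 ± 0.09. The median of this list was -0.18.

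The core enzymes that make palmitate showed small differences that did not pass, apart from Acacb. Acly, which splits citrate into acetyl-CoA, differed by 0.13 ± 0.07, with a 95% interval of -0.02 to 0.28. Fasn, the fatty acid synthase, differed by 0.16 ± 0.11, with an interval of -0.09 to 0.42. Acaca, the cytosolic acetyl-CoA carboxylase, differed by 0.22 ± 0.11, with an interval of -0.02 to 0.47 (adjusted p = 0.163, and 0.0413 without inactivated replicate 2, where the difference was 0.30). These intervals leave out changes of 2-fold in either direction. Me1, the malic enzyme that supplies NADPH, differed by 0.17 ± 0.08 on its brightest probe set (adjusted p = 0.135). A second Me1 probe set gave 0.45 ± 0.09 (adjusted p = 0.00385), and the mean of both passed, with 0.31. For Acly, 1 of 6 probe sets was called, with 0.26.

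Acss2, which makes acetyl-CoA from acetate, was the member of the supply group that rose. It read 7.12, 7.21, 8.03, 7.74 and 7.23 in inactivated replicates 1 to 5 and 6.58, 6.87, 6.84 and 6.74 in the controls. All inactivated arrays lay above all controls, and replicates 3 and 4 were highest. The difference was 0.71 ± 0.18 (1.63-fold, adjusted p = 0.0138), and a second probe set rose by 0.63. Of 11 measured companion genes that supply carbon and reducing power, 1 passed: Pgd, of the NADPH-producing pentose phosphate pathway, rose by 0.50 ± 0.08, while the citrate carrier Slc25a1 differed by -0.23 ± 0.14.

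Acacb, the carboxylase isoform at mitochondria whose malonyl-CoA limits fatty acid entry for oxidation, read 7.02, 5.09, 5.59, 6.80 and 7.13 in inactivated replicates 1 to 5. The controls read 7.22, 7.62, 7.67 and 7.40. The groups did not overlap, but replicates 1 and 5 lay close to the lowest control, and replicates 2 and 3 lay far below. The difference of -1.15 ± 0.39 (2.22-fold lower, adjusted p = 0.0495) was at the threshold. The call was lost without inactivated replicate 2, 3 or 4 or without any single control, over a range of differences from -1.35 to -0.84. It was also lost with sex as a covariate (adjusted p = 0.0674), with quantile normalisation (0.0585) and with an intensity trend and robust prior (0.0633).

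The elongases went in different directions. Elovl5, which lengthens polyunsaturated chains, fell by 1.28 ± 0.21 (2.44-fold lower, adjusted p = 0.00126). It read 9.64, 9.09, 9.28, 9.92 and 10.14 on the inactivated arrays and 10.63, 11.24, 10.78 and 10.97 on the controls. No inactivated array reached a control, and the second Elovl5 probe set fell by 1.29. Elovl6, which lengthens palmitate to stearate, fell by 0.92 ± 0.22 (1.89-fold lower, adjusted p = 0.00993), from 9.99 to 10.39 on the controls to 8.64 to 9.83 on the inactivated arrays. Its second probe set fell by 1.07.

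Elovl7, an elongase of saturated chains, rose. It read 11.08, 11.11, 10.95, 11.13 and 11.06 on the inactivated arrays and 10.36, 10.64, 10.50 and 10.43 on the controls. The groups lay apart, and the inactivated arrays were close together. The difference was 0.58 ± 0.08 (1.5-fold, adjusted p = 0.000309), and 3 of its 6 probe sets were called, all higher. Elovl3, which makes long saturated and monounsaturated chains in sebaceous glands, differed by 0.12 ± 0.46 (adjusted p = 0.872). Its inactivated arrays read 10.64, 8.15, 8.95, 10.25 and 10.41, on both sides of the controls at 9.19 to 9.88. Elovl2, an elongase of polyunsaturated chains, was close to the bottom of the array range, at 1.97 ± 0.15 (SD, n = 5) and 1.82 ± 0.10 (SD, n = 4), and differed by 0.14 ± 0.09.

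**Figure D2:**
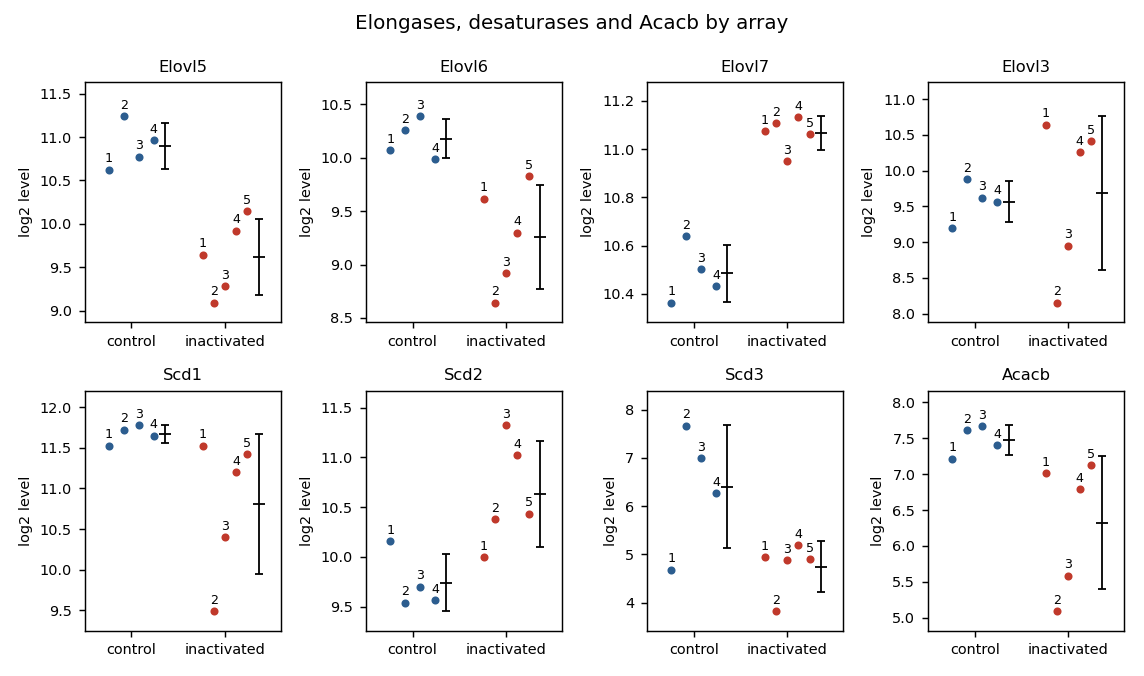
Log2 level of 4 elongases, 3 stearoyl-CoA desaturases and Acacb on each array, with the replicate number beside each point and the mean ± SD as a bar. Elovl5 and Elovl6 are lower and Elovl7 higher on all 5 inactivated arrays, and inactivated replicates 2 and 3 are the lowest arrays for Elovl3, Scd1 and Acacb.

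Among 9 measured companion genes of elongation and desaturation, 2 rose, 2 fell and 5 did not pass, with a median of 0.09. Elovl4, which makes the ultra-long chains of acylceramides, rose by 0.39 ± 0.08, from 11.46 to 11.72 on the controls to 11.82 to 12.13 on the inactivated arrays. Fads6, a fatty acid desaturase family member, rose by 0.44 ± 0.11. The dehydratase Hacd4 and the enoyl reductase Tecr, which act after each elongase step, fell by 1.42 ± 0.21 and 0.72 ± 0.10. The other measured enzymes of the cycle, Hsd17b12, Hacd1, Hacd2 and Hacd3, differed by -0.12 to 0.13 on their brightest probe sets and did not pass. A second Hsd17b12 probe set was called higher, with 0.35 ± 0.11 (adjusted p = 0.0410). The second of Hacd2 gave -0.40 ± 0.14 and was not called.

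The stearoyl-CoA desaturases, which place the first double bond into saturated chains, also went apart. Scd2 read 10.38, 11.33, 11.02 and 10.44 in inactivated replicates 2 to 5 and 10.16, 9.54, 9.70 and 9.56 in the controls. Replicates 3 and 4 were highest, and inactivated replicate 1 lay between control replicate 1 and the other controls. Scd2 rose by 0.89 ± 0.25 (1.85-fold, adjusted p = 0.0214), and all 3 of its probe sets were called higher. The call was lost without control replicate 2, 3 or 4, with differences of 0.82 to 0.88.

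Scd1, the main desaturase of the sebaceous gland, read 11.53, 9.49, 10.41, 11.20 and 11.42 on the inactivated arrays and 11.53 to 11.78 on the controls. Replicates 1, 4 and 5 lay near the controls and replicates 2 and 3 below, and the difference of -0.86 ± 0.36 did not pass (adjusted p = 0.100). Scd3, a further isoform of the gland, read 4.95, 3.82, 4.88, 5.19 and 4.90 on the inactivated arrays against 4.69, 7.67, 6.99 and 6.27 on the controls. Control replicate 1 lay among the inactivated arrays, and the other controls lay above them. Scd3 fell by 1.66 ± 0.51 (3.15-fold lower, adjusted p = 0.0330). This call was lost without inactivated replicate 2 or 3 or control replicate 2, 3 or 4.

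The labels give no sex. Xist and Y-linked transcripts marked 3 inactivated arrays (replicates 3, 4 and 5) and 1 control (replicate 1) as female, and the other 5 arrays as male. For Scd3 the difference was -2.59 among the 2 inactivated and 3 control males, and 0.30 among the 3 inactivated and 1 control females. With sex as a covariate the calls of Scd3 (-1.48, adjusted p = 0.0719), Acacb (adjusted p = 0.0674) and Acsl4 (-0.64, adjusted p = 0.0530) were lost, leaving 6 genes that fell. Of the 18 genes that rose or fell, all kept their sign among the males, and all but Scd3 among the females, which is a description of the same arrays. The female control is the one that lay among the inactivated arrays for Scd3.

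The fatty acid desaturases Fads1, Fads2 and Fads3 did not pass, with -0.25 ± 0.15, 0.01 ± 0.09 and -0.32 ± 0.28. Fads1 and Fads2 make arachidonate and related acids from linoleate and linolenate. The 95% interval for Fads2 was -0.20 to 0.21, although its levels of 4.18 and 4.17 were dim. For Fads1 it was -0.58 to 0.08, with inactivated replicate 2 at 5.62 and all other arrays at 6.25 to 6.54.

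All 3 acyl-CoA synthetases among the 38 genes passed, against 34.4% of all genes. Outside the 38, the dim Acsl6 (0.22 ± 0.08) and Acsbg1 (-0.15 ± 0.09) did not pass, and Acsl1 was not measured. Acsl3, a synthetase of lipid droplets, rose by 0.55 ± 0.17 (adjusted p = 0.0379). It read 7.33 in inactivated replicate 1, 6.37 to 6.63 in the other inactivated arrays and 5.95 to 6.24 in the controls. Acsl5, which is found at mitochondria and the endoplasmic reticulum, fell by 0.39 ± 0.09 (adjusted p = 0.0102), from 10.33 to 10.64 on the controls to 9.90 to 10.22 on the inactivated arrays. Acsl4, which prefers arachidonate, fell by 0.60 ± 0.19 (adjusted p = 0.0398), with inactivated replicate 2 lowest at 6.17. The Acsl3 call was lost without inactivated replicate 4 or any single control, and the Acsl4 call without inactivated replicate 3 or 4 or any single control. Both were lost with the mean of all probe sets (0.29 and -0.44), and that of Acsl4 also with quantile normalisation (-0.52).

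Of 14 measured companion synthetases and acyltransferases, 1 rose, 3 fell and 10 did not pass, with a median of -0.13. The fatty acid transport protein Slc27a4, a synthetase needed for the skin barrier, rose by 0.30 ± 0.08, a call lost without control replicate 1 or 4. Slc27a3, of the same family, fell by 0.99 ± 0.17. The acyltransferases Agpat4 and Agpat5, of the same family as Agpat1 to Agpat3, fell by 1.72 ± 0.18 and 1.51 ± 0.16 (adjusted p = 8.83e-05 and 9.95e-05). Agpat4 read 7.20 to 7.99 on the inactivated arrays and 9.17 to 9.39 on the controls, far apart.

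Among the roles listed, the route to phosphatidate and diacylglycerol held the most rises. Of its 7 listed genes 4 rose (57.1%, against 15.5% of all genes), 1 fell and 2 did not pass, with a median of 0.54. Companion genes of the same steps did not rise. Agpat4 and Agpat5 fell, as given above, and Gpat2, Gpat3 and Gpat4 did not pass, with 0.18, -0.24 and -0.0007. Gpam, the mitochondrial glycerol-3-phosphate acyltransferase of the first step, fell by 0.51 ± 0.11 (adjusted p = 0.00510). It read 8.60, 8.66, 8.67, 8.94 and 9.11 on the inactivated arrays and 9.25, 9.30, 9.35 and 9.33 on the controls, so the groups did not overlap. A second, dimmer Gpam probe set gave -0.10 ± 0.10 and was not called.

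Agpat3, which acylates lysophosphatidate, rose with little spread. It read 8.85, 8.65, 8.51, 8.63 and 8.60 on the inactivated arrays and 7.57, 7.54, 7.50 and 7.54 on the controls. The groups were far apart, with a difference of 1.11 ± 0.08 (2.16-fold, adjusted p = 6.57e-06). Of the other 3 Agpat3 probe sets, 2 rose, by 0.73 and 0.48, and 1 gave 0.04 ± 0.06 (adjusted p = 0.659). That last probe set represents the gene when those with a suffix for possible matches to several transcripts are left out. Agpat2, a lysophosphatidate acyltransferase of adipose tissue, rose by 0.59 ± 0.17 (adjusted p = 0.0243), a call lost without control replicate 1 or 2, and Agpat1 differed by 0.05 ± 0.06, with an interval of -0.09 to 0.19.

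The lipins remove the phosphate of phosphatidate to give diacylglycerol. Lpin2 read 8.24, 7.84, 8.02, 8.38 and 7.28 on the inactivated arrays and 6.81, 6.67, 6.70 and 6.59 on the controls. All inactivated arrays were higher, with replicate 5 nearest to the controls. Lpin2 rose by 1.26 ± 0.19 (2.39-fold, adjusted p = 0.000710), and all 4 of its probe sets were called higher, by 0.73 to 1.26. Lpin3 rose by 0.54 ± 0.11 (adjusted p = 0.00488), from 6.18 to 6.50 on the controls to 6.64 to 7.16. Lpin1 differed by 0.39 ± 0.21 (adjusted p = 0.198), with inactivated replicate 4 highest at 7.41.

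**Figure D3:**
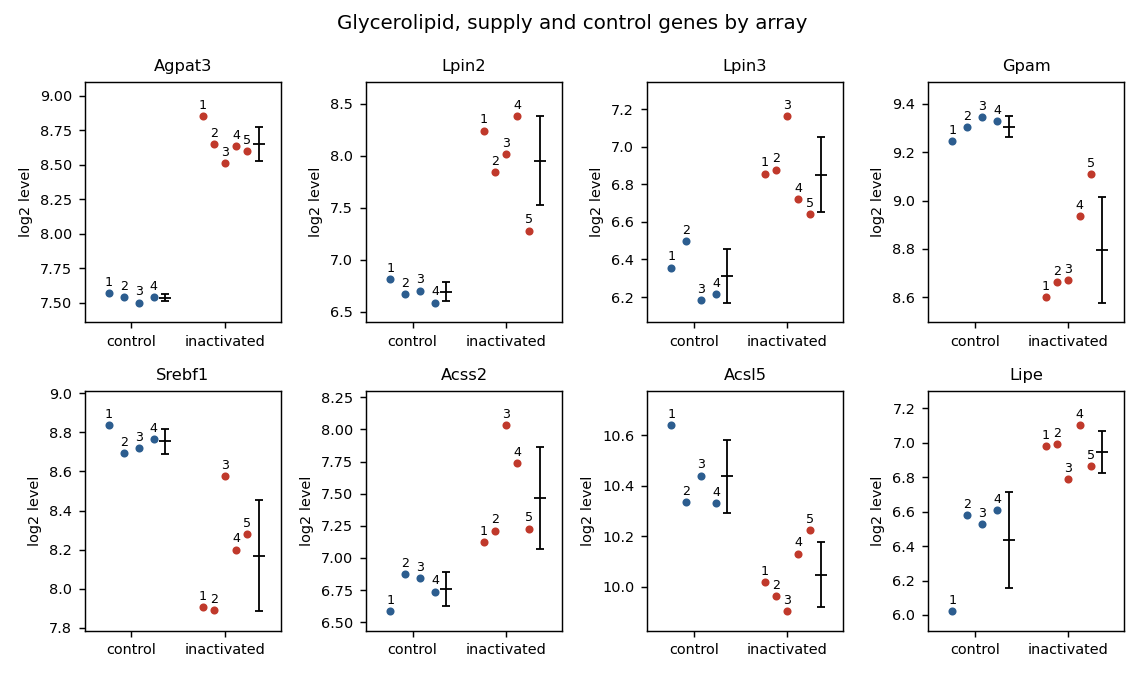
Log2 level of Agpat3, Lpin2, Lpin3, Gpam, Srebf1, Acss2, Acsl5 and Lipe on each array, with the replicate number beside each point and the mean ± SD as a bar. In all 8 panels the 5 inactivated arrays and the 4 controls do not overlap.

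At the last step, Dgat2, which adds the third acyl chain and is the diacylglycerol acyltransferase of most storage triglyceride, fell by 0.30 ± 0.09 (1.23-fold lower, adjusted p = 0.0320). It read 10.02 to 10.42 on the inactivated arrays and 10.51 to 10.61 on the controls. The call was lost without inactivated replicate 1, 4 or 5 or any single control, and the second Dgat2 probe set gave -0.22 and was not called. It was also lost after subtraction of array medians (-0.25). Dgat1, the other enzyme of this reaction, differed by 0.20 ± 0.21 (adjusted p = 0.513). The monoacylglycerol acyltransferases Mogat1 and Mogat2 were dim, at mean log2 levels of 2.29 to 2.76 in either group, and differed by 0.31 ± 0.14 and 0.10 ± 0.08 without passing (Mogat1 passed without inactivated replicate 5, with 0.39).

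Among the lipases, Lipe rose and the others did not pass. Lipe, the hormone-sensitive lipase that acts on diacylglycerol, read 6.98, 6.99, 6.79, 7.10 and 6.86 on the inactivated arrays and 6.02, 6.58, 6.53 and 6.61 on the controls. Control replicate 1 was far below the others, and the groups did not overlap. Lipe rose by 0.51 ± 0.12 (adjusted p = 0.0111), and by 0.37 without control replicate 1, still a call. Pnpla2, the triglyceride lipase of the first step, differed by -0.19 ± 0.18. Mgll, which releases the last acyl chain, differed by -1.19 ± 0.43 (adjusted p = 0.0600), and passed without inactivated replicate 1 or 5 (-1.41 either way). Of the other 3 Mgll probe sets, 2 gave -0.98 and -1.12 and the dimmest gave 0.19, none called. Lpl, which takes fatty acids out of circulating lipoproteins, differed by -1.06 ± 0.52 (adjusted p = 0.151).

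The 23 measured companions on lipid droplets and lipases had 6 higher, 3 lower and 14 not passing, with a median of -0.04. Pnpla1, which transfers linoleate to form acylceramide, rose by 0.90 ± 0.09, and Abhd5, the activator of Pnpla2 and Pnpla1, by 0.80 ± 0.09. Abhd5 read 9.74 to 10.01 on the inactivated arrays and 8.98 to 9.28 on the controls. Gpihbp1, which anchors Lpl in capillaries, rose by 0.84 ± 0.26, with overlap, and this call was lost without inactivated replicate 1, 3 or 4 or any single control. Pnpla3, a lipid droplet protein of the same family, fell by 2.23 ± 0.39 (adjusted p = 0.00174), from 8.46 to 9.20 on the controls to 5.28 to 7.55. The lysosomal lipase Lipa fell by 0.69 ± 0.15, and the droplet coat protein Plin3 by 0.66 ± 0.09. Of 10 genes of fatty acid binding and uptake, 2 rose, 1 fell and 7 did not pass, with a median of 0.01. The thioesterase Acot7 rose by 0.91 ± 0.11, the epidermal carrier Fabp5 by 0.47 ± 0.06, near the top of the array range, and Acbd5, which binds acyl-CoA at peroxisomes, fell by 0.35 ± 0.11, a call lost without inactivated replicate 1 or 3 or control replicate 2, 3 or 4.

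Enzymes of the same kind of reaction, in part on different chains, were then set against each other within each array. All 28 pairs inside 9 families were taken, a comparison chosen after the values were seen. The change of the log2 ratio of each pair was tested by a two-sided exact permutation test over the 126 splits of the arrays, doubling the smaller tail, so that the smallest possible p is 0.0159, and adjusted by Benjamini-Hochberg over the 28 pairs. The change passed in 13 pairs, each at an exact p of 0.0159 and an adjusted p of 0.0342, but 7 of these add nothing to the values above. In 4 of the 7, 1 gene lay above and the other below all controls, which fixes the result, and those are given without a test: Elovl5 over Elovl7 changed by -1.87, Elovl6 over Elovl7 by -1.50, Acsl3 over Acsl4 by 1.15 and Acsl3 over Acsl5 by 0.94. The other 3 set Elovl2, at the bottom of the array range, against Elovl5, Elovl6 and Elovl7, and repeat the change of those genes. In the remaining 6 pairs, Lpin2 rose more than Lpin3 by 0.72 and more than Lpin1 by 0.87, and Acaca over Acacb changed by 1.38. Agpat1 over Agpat3 changed by -1.06, Agpat1 over Agpat2 by -0.54 and Elovl3 over Elovl5 by 1.40. Acaca, Agpat1, Elovl3 and Lpin1 had not passed, so their pairs rest mainly on the change of the partner given above. Only Lpin2 over Lpin3 set genes that both passed against each other. Since the pairs were chosen after the values were seen, their p is not separate support.

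Scd2 over Scd3 changed by 2.55 and did not pass (exact p = 0.0317, adjusted p = 0.0593). It was the 1 pair that passed only by a second exact p, the share of splits with at least as large an absolute difference, which was added after seeing the data and gave 14 pairs (for Scd2 over Scd3, exact p = 0.0159, adjusted p = 0.0370). Scd1 over Scd2 changed by -1.75 and did not pass either way (exact p = 0.0317, adjusted p = 0.0593). For Elovl5 over Elovl6, both lower, the change was -0.37 (exact p = 0.111, adjusted p = 0.173). For Agpat2 over Agpat3, both higher, it was -0.52 (exact p = 0.0476, adjusted p = 0.0784). Of the Fads, Dgat and Mogat pairs, none passed.

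The arrays of the inactivated group differed among themselves more than the controls did in 30 of the 38 genes (78.9%), against 70.3% of all genes. Inactivated replicate 2 held the lowest value of its group for 18 of the 38 genes, replicate 5 for 7, replicates 1 and 3 for 6 each and replicate 4 for 1. The share over all genes was not counted, so this is not shown to be particular to the 38. Replicate 2 also had the lowest array median of its group, 4.34 against 4.36 to 4.39. For Mgll the inactivated arrays read 9.97, 7.73, 8.42, 9.46 and 9.95, against 9.83 to 10.52 on the controls. For Lpl they read 9.10, 7.30, 8.26, 10.51 and 9.57, against 9.76 to 10.27. In 12 genes replicate 2 was the lowest inactivated array and replicate 3 the next lowest, again without a count over all genes. Of these, 5 had fallen, namely Elovl5, Elovl6, Scd3, Acacb and Acsl4, and 7 had not passed, namely Elovl3, Scd1, Fads1, Fads3, Dgat1, Mgll and Lpl. Elovl5 and Elovl6 lay below all controls on replicates 1, 4 and 5 too, and kept their call without either array.

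**Figure D4:**
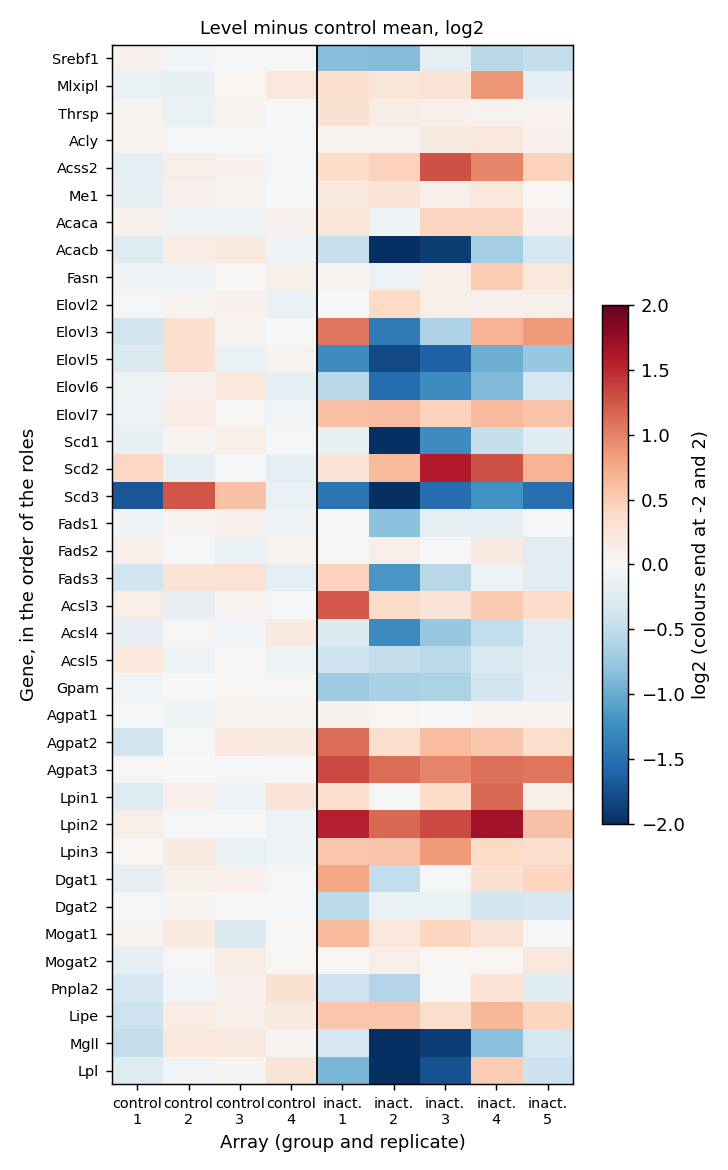
Log2 level of each of the 38 genes on each array minus the mean of the 4 controls, with genes in the order of their roles and arrays in columns. Agpat3, Lpin2 and Elovl7 are red in all 5 inactivated columns, whereas Acacb, Scd1, Mgll and Lpl are darkest blue in the columns of inactivated replicates 2 and 3.

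Markers of sebocytes, the lipid-producing cells of sebaceous glands, varied in the same arrays. Far2, which makes fatty alcohols for waxes, read 9.62, 6.90, 7.68, 8.97 and 9.51 on the inactivated arrays and 8.64 to 9.50 on the controls. Fa2h, a fatty acid hydroxylase, read 9.57, 7.14, 7.81, 8.81 and 9.43, and the lipid-sensing receptor Pparg 5.34, 3.56, 3.81, 5.33 and 5.16. Each of these was lowest on replicates 2 and 3, as were the summed fibroblast markers given below. Of the 9 sebocyte markers measured, of 10 listed, 2 fell (Krt79 and Apoc1), 1 rose (Cidea) and 6 did not pass. The Cidea call was lost without inactivated replicate 1, 4 or 5 or control replicate 1, 3 or 4. Mc5r, the most specific of them, was dim, at 3.25 and 3.48 in the group means, and Plin2 and Mgst1 are not restricted to these cells. Cidea, Far2 and Plin2 also belong to the companion lists above. The summed marker level (log2 of the sum) was 12.80 and 12.78 on inactivated replicates 2 and 3, 13.28 to 13.57 on the other inactivated arrays and 13.60 to 13.79 on the controls. Krt79, the brightest of these markers, fell and weighs most in the sum. By the mean log2 level of the 9 markers the groups overlapped. The means were 7.93 and 8.15 on inactivated replicates 2 and 3 and 8.85 to 9.105 on the other inactivated arrays. The controls were at 8.73 to 9.15. The part of sebocyte RNA in the values of the 12 genes with this order of arrays, Elovl5 and Elovl6 among them, was not tested.

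**Figure D5:**
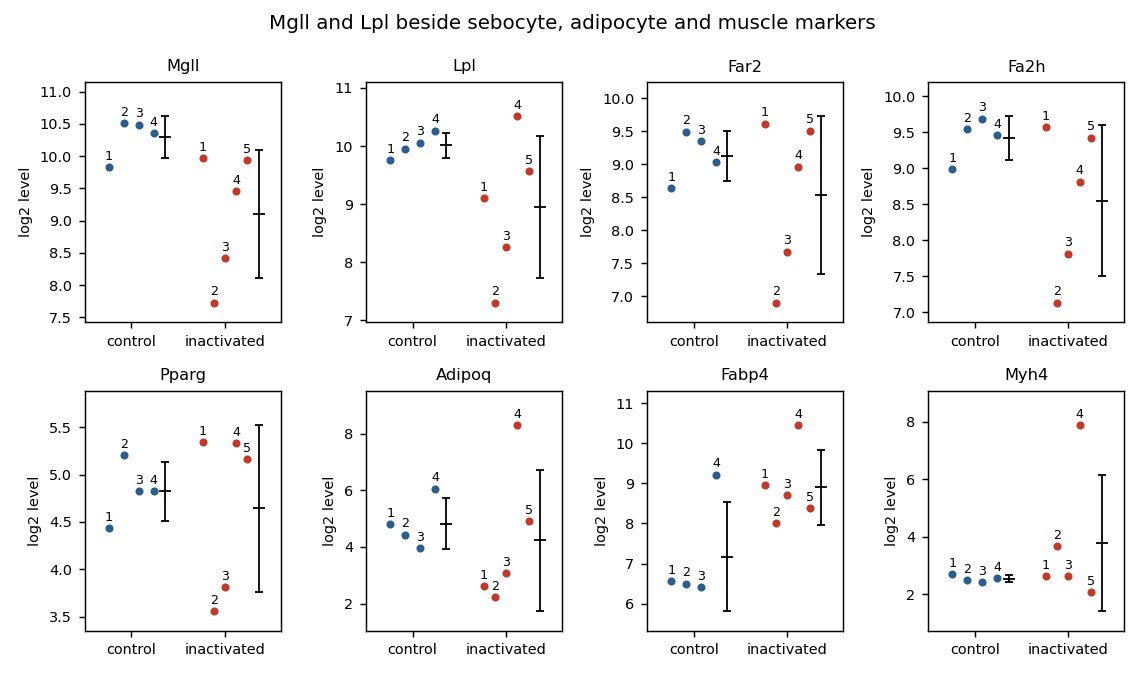
Log2 level of Mgll and Lpl beside the sebocyte markers Far2, Fa2h and Pparg, the adipocyte genes Adipoq and Fabp4 and the muscle myosin Myh4 on each array, with replicate numbers and the mean ± SD as a bar. Inactivated replicates 2 and 3 are lowest for Mgll, Lpl, Far2, Fa2h and Pparg, and inactivated replicate 4 is highest for Lpl, Adipoq, Fabp4 and Myh4.

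Of the markers of adipocytes and skeletal muscle, tissues that lie below the epidermis, 5 of 7 and 6 of 6 were highest on inactivated replicate 4 (Adig and Lep were highest on replicate 1). The adipocyte hormone Adipoq read 8.30 there, 2.23 to 4.92 on the other inactivated arrays and 3.97 to 6.06 on the controls, and none of the 7 adipocyte markers measured, of 10 listed, passed. Their summed level was 11.01 on that array, 8.42 to 9.38 on the other inactivated arrays and 7.73 to 9.62 on the controls. On inactivated replicate 4 the muscle myosin Myh4 read 7.88, against 2.07 to 3.68 elsewhere. None of the 6 muscle markers passed, and their summed level was 10.16 there and 6.11 to 7.24 elsewhere. The same array had the highest level of Lpl, and without it Lpl fell by 1.45 (adjusted p = 0.0287). Without this array 8 of the 38 genes rose and 7 fell. Fibroblast markers fell in 7 of 8 (87.5%, against 18.9% of all genes), and 1 rose. Their summed level was 13.15 to 13.89 on the inactivated arrays and 14.02 to 14.66 on the controls. It was lowest on inactivated replicates 2 and 3, at 13.17 and 13.15. Macrophage markers fell in 4 of 7 (57.1%, with 3 not passing), with summed levels of 11.33 to 12.16 against 12.14 to 12.43. In the endothelial list 1 of 6 fell, 1 rose and 4 did not pass, with summed levels of 7.69 to 8.46 against 7.92 to 8.42. When each array was left out, the calls of Fbln1 (the fibroblast rise) and C1qa (a macrophage fall) held in 3 of 9 fits. Those of Vwf and Emcn (the endothelial fall and rise) held in 6 and 7 of 9. The other calls in these lists held in all 9. The lowest summed levels of the macrophage and endothelial lists were both on inactivated replicate 2. The part of these cells in the differences above was not tested.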

How the data were processed

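Total RNA of epidermal sheets was labelled with a 3' IVT kit and hybridised to Affymetrix Mouse Genome U430 2.0 arrays, per the labels' protocols. The authors deposited log2 values for 45037 probe sets on 9 arrays. The tool affy is named in the submitters' processing notes without a version, and the background correction, normalisation, summary method and base of the logarithm were not stated there. Array maxima of 13.47 to 13.53 exceed what natural logarithms of scanner values could reach, so the scale was read as log2. Summarised values are compressed near the bottom and top of this range.

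Platform annotation gave 34945 probe sets 1 gene symbol, 932 several and 9160 none. No symbol needed updating in RefSeq (GRCm38.p6), and 9010 genes had over 1 probe set. Of the 38 genes described, 36 lay above the 25th percentile of all probe sets and 33 above the median. No dim probe set was removed. Groups were compared with limma 3.58.1 in R 4.3.3 (lmFit, eBayes, two-sided, 7 residual degrees of freedom, no covariate), adjusted over all 45037 probe sets at 0.05. At least 2-fold means a log2 difference of 1 or more. The number of arrays sets the precision. Nothing in the labels says how the biological replicates were taken, so p-values measure the spread between these samples. Pairs of enzymes were tested in Python 3.11.15 by exact permutation (scipy 1.17.1).

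All 40 genes are accounted for. Of each companion list the text names up to 3 genes that passed in each direction with the largest difference. Members and lists were chosen with earlier results of these data known. Alternatives were quantile normalisation, subtraction of array medians, filters on dim probe sets, an intensity trend with a robust prior, the replicate number as a block, sex as a covariate, the mean of all probe sets, removal of probe sets that may match several transcripts, and leaving out each array.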

Additional observations from a re-analysis of the deposited data

Results flagged for a closer look

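In 76 groups examined (38 genes in 2 groups), 5 had an array set apart from the rest of its group by most of the group's range, where chance gives about 1 in 20 groups. Of these, 3 were on inactivated replicate 2: Scd3 read 3.82 there with the next array at 4.88, Fads1 read 5.62 with the next at 6.25, and Elovl2 read 2.23, above the next at 1.94 and near the bottom of the array range. Acsl3 read 7.33 on inactivated replicate 1, with the next highest at 6.63. Lipe read 6.02 on control replicate 1, with the next lowest at 6.53.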

How the results depend on the processing

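Of 675 values of single genes under the alternatives, 602 kept their direction and their side of the threshold, 50 kept the direction but no longer passed and 9 newly passed. The sign changed in 14, of 6 genes that were not called in any of these, and in 0 values of the 18 called genes. With the mean of all probe sets Acaca gave -0.061, Fads2 -0.0038 and Agpat1 -0.020. Without probe sets that may match several transcripts, a dimmer one gave 0.15 for Pnpla2 and 0.19 for Mgll. Elovl3 gave -0.065 with the replicate block and -0.12 to 0.50 when each array was left out, below 0 without inactivated replicate 1, 4 or 5 or control replicate 1. Fads2 gave -0.038 to 0.061 when each array was left out. The count of genes that rose was 9 and ranged from 8 to 10 over the alternatives that keep all arrays, and from 6 to 10 when each array was left out. The count of genes that fell was 9 and ranged from 6 to 10 with all arrays (6 with sex as a covariate) and from 5 to 9 when each array was left out, with 5 without control replicate 2, 3 or 4, where fewer arrays enter. Over all genes the leave-one-out ranges were 2091 to 2847 higher and 2753 to 3585 lower. Mlxipl passed with the replicate number as a block (0.43, adjusted p = 0.0218). With this replicate block 8 genes rose and 7 fell, and over all genes 2256 rose and 3089 fell. Deviations of same-numbered arrays correlated from -0.27 to 0.08 over probe sets in the 4 pairs, and 1 of 4 inactivated arrays correlated best with its own number, so the numbers were not taken to pair the mice. By the exact p from the absolute difference, added after seeing the data, 14 pairs of enzymes passed in place of 13. Agpat3 gave 0.04 when probe sets that may match several transcripts were left out. Levels near the bottom of the range, as for Elovl2, Mogat1 and Mogat2, limit what can be read there.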

Other observations

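In the RefSeq order of protein-coding genes (GRCm38.p6), Scd2 and Scd3 are direct neighbours, and Scd2 rose by 0.89 while Scd3 fell by 1.66. Dgat2, which fell by 0.30, neighbours Mogat2, which differed by 0.10 and did not pass. Acsl3, which rose by 0.55, neighbours Mogat1, which differed by 0.31 and did not pass. Fads1, Fads2 and Fads3 lie in a row, and none of them passed, with -0.25, 0.01 and -0.32.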
